A study of Homo sapiens with 4 samples.

Results

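Receptor tyrosine kinases are proteins of the cell surface that bind a growth factor or another ligand outside the cell, pair up and phosphorylate tyrosines on their own tails. Adaptor proteins then dock on these tyrosines and pass the signal to the RAS, PI3K and phospholipase C pathways. In glioblastoma, the most aggressive tumor of the glial lineage, genes of this family are among those most often amplified, mutated or raised in expression, *EGFR* and *PDGFRA* being the best known. The present analysis followed 10 of them that are often studied in this tumor, *EGFR*, *ERBB2*, *PDGFRA*, *PDGFRB*, *MET*, *AXL*, *FGFR1*, *IGF1R*, *EPHA2* and *DDR2*. They were listed by name, with earlier results of these data known, and make up 10 of the 46660 gene identifiers in the table.

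The RNA came from U87MG and U251MG, both established human glioblastoma cell lines, and the U87MG of the common cell repository is described in the study's methods as a glioblastoma line of unknown patient origin. In each line, cells carrying a lentivirus with short hairpin RNAs against *FLI1*, an ETS family transcription factor, were set beside cells carrying the empty pGreen vector, which the sample titles call shControl. Both kinds of cells were selected with puromycin, were pooled stable cells rather than single clones, and grew in DMEM with fetal bovine serum. There was 1 library in each of the 4 groups, so no spread between replicates could be estimated within a group, and a comparison inside a line is of 2 libraries rather than of 2 conditions.

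Levels are given as CPM, which are counts divided by library size, with the sizes scaled by the TMM method. A change is the log2 ratio of the CPM of 2 libraries with its 95% Clopper-Pearson interval, and it was called where it exceeded 2-fold and the interval left out 0. These intervals cover counting error alone, and they treat reads as independent molecules, which PCR copies are not. In bulk RNA, fewer expressing cells cannot be told apart from less RNA per cell. Totals ranged from 12229780 to 28891055 counts, and the shFLI1 library was deeper than its control by 1.74-fold in U87MG and 1.60-fold in U251MG. All 10 receptors had at least 10 counts in every library, and *PDGFRB* was the only one under 100 counts in any. The summed CPM of 7 glial markers ranged from 4178 to 8095, while the immune and epithelial markers summed to at most 0.167 CPM. Of these, 2 of 3 listed immune genes and 1 of 2 listed epithelial genes were in the table. The neuron markers were not at the floor, with sums from 12.41 to 30.01 CPM, mostly from *SYT1*. The mural markers summed to between 13.69 and 32.42 CPM, and the endothelial markers to between 0.8414 and 5.677 CPM. The glial list was carried by *VIM*, *GFAP*, *NES*, *SOX2* and *SOX9*, and the oligodendrocyte lineage factor *OLIG2* and *S100B* stood at or near 0. *GFAP*, the astrocyte filament gene, was called higher after knockdown in U87MG (log2 1.32) and U251MG (2.19).

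*FLI1* itself had 107 counts in U87MG control cells and 52 in the shFLI1 cells, and 216 and 111 in the corresponding U251MG libraries. Scaled for depth, it stood at 9.34 and 2.34 CPM in U87MG and at 12.1 and 3.71 CPM in U251MG. The targeted gene was thus at 25.0% of control in U87MG, a log2 change of -1.95 (95% interval -2.51 to -1.51), and at 30.6% in U251MG, a log2 change of -1.68 (-2.05 to -1.37).

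Because FLI1 binds DNA at a GGAA core, the 250 bases before the start sites of the receptors were read from RefSeq on GRCh38.p14. Of the 10 genes, 9 had entries, with 14 start sites among them. The stretches shown are those of the receptors called lower after knockdown (*EPHA2* and *PDGFRB*), of the pair whose levels ran most alike among the 10 (*AXL* and *MET*), and of *ERBB2*, the only one with the longer ETS motif. Capitals mark GGAA or its reverse complement TTCC, each sequence runs 5′ to 3′ toward the gene, and bases inside an annotated transcript were left off for *PDGFRB*. For *ERBB2* only 30 bases around the motif are given, and these lie inside the annotated gene.

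EPHA2, chr1:16156070-16156319, minus strand: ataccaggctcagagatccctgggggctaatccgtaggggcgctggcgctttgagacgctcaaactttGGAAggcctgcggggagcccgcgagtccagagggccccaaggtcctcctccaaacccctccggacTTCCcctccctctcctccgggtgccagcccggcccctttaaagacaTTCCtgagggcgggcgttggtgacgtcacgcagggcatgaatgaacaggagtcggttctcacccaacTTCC
PDGFRB, chr5:150155873-150156095, minus strand: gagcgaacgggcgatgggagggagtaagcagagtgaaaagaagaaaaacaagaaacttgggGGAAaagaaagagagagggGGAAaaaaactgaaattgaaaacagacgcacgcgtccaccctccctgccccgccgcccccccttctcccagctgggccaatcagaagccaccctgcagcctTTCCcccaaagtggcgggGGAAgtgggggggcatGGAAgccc
AXL, chr19:41218973-41219222, plus strand: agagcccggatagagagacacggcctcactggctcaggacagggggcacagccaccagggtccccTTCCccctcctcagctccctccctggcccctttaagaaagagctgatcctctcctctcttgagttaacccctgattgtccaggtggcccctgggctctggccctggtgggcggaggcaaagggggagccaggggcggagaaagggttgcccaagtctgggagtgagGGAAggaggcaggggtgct
MET, chr7:116671946-116672195, plus strand: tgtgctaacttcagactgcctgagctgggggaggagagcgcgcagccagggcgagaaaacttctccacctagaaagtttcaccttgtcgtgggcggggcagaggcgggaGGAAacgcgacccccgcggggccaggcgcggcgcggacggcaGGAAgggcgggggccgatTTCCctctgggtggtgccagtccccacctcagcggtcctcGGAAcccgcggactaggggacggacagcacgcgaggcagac
ERBB2, chr17:39688063-39688092, plus strand: TTCCacTTCCggagtaaccGGAAgTTCCtg

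The core was present in all 14 windows, and in 92.7% of 35116 promoter windows of the same length, counting both strands and overlapping matches. *EPHA2* had 4 matches, *PDGFRB* 5, *AXL* 2 and *MET* 4 in these windows, against a median of 3 over all promoters. The extended GGAAG, which contains the core, was found in 8 of the 14 windows and in 65.1% of all. The motif CCGGAAGT was found in the *ERBB2* window alone, where it occurred 2 times, once on each strand, and in 3.42% of all windows. The tandem GGAAGGAA was in none of the 14 and in 3.06% of all. A match of letters is not a binding site, and binding was not measured here. The *ERBB2* window precedes the most upstream RefSeq start of the gene but lies partly inside the gene as annotated by GENCODE, which begins at chr17:39687914. Both CCGGAAGT matches lie inside that annotated gene.

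To place the receptors against each other, the authors' FPKM values, which are per transcript length, were summed over mRNA records (the FPKM plot). *EPHA2*, an ephrin-A receptor of cell contacts, led the receptor genes of U87MG control cells with 166 FPKM and stood second in U251MG control cells with 159 FPKM. *AXL*, the receptor of GAS6, followed with 94.6 FPKM in U87MG and 98.7 FPKM in U251MG. *MET*, the receptor of hepatocyte growth factor, reached 46.8 and 52.7 FPKM. These 3 genes were within the first 5 of 54 receptors in both control libraries.

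**Figure D1:**
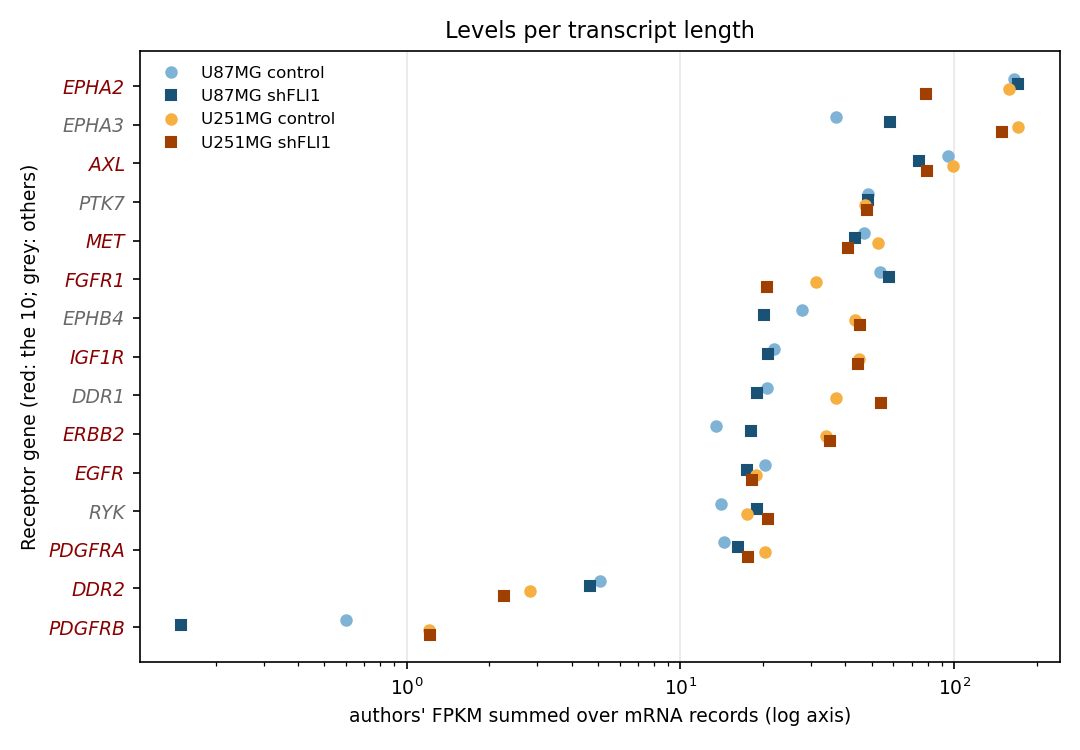
The authors' FPKM summed over mRNA records (x axis, log scale) for the 10 receptors (red names) and for the other receptor genes that ranked within the first 13 in any library (grey names), with 1 point for each of the 4 libraries. *EPHA2* and *AXL* sit at the top of the 10 in every library, *DDR2* and *PDGFRB* at the bottom, and *EPHA3* lies at 170 FPKM in U251MG control cells against 37.0 in U87MG control cells.

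Over mRNA records, *FGFR1*, a receptor of fibroblast growth factors, was the member whose place among the receptors differed most between the control lines. It had rank 3 with 53.5 FPKM in U87MG and rank 10 with 31.4 FPKM in U251MG. Over all RNAs it had 89.5 and 50.7 FPKM, rank 3 and rank 4 among the 10. *IGF1R*, the receptor of insulin-like growth factors, had 21.9 FPKM over mRNA records in U87MG control cells and 45.0 FPKM in U251MG control cells. *EGFR*, the receptor of epidermal growth factor, was of middle rank with 20.3 and 18.8 FPKM, as was *PDGFRA* with 14.4 and 20.3 FPKM. At the low end, *DDR2*, a receptor of fibrillar collagen, had 5.09 and 2.83 FPKM, and *PDGFRB*, the platelet-derived growth factor receptor typical of mural and stromal cells, had 0.60 and 1.21 FPKM. With 1 library a group, no gap in this order, wide or narrow, could be set against replicate error. The order is least secure for neighbours that differ by a few percent, such as *IGF1R* and *EGFR* in U87MG control cells.

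Together the 10 genes made up between 0.175% and 0.227% of all counts. Of the counts of all 54 receptor genes in the table, they took 67.5% in U87MG control cells and 64.7% in U87MG shFLI1 cells. In U251MG the share was 55.8% in control cells and 47.1% in shFLI1 cells. The most abundant receptor outside the 10 in U251MG was *EPHA3*, another ephrin-A receptor, with 170 FPKM in control cells and 150 FPKM after knockdown. *PTK7*, a receptor-like pseudokinase, had between 47.4 and 48.4 FPKM in all 4 libraries.

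The control libraries were compared to ask which receptors differ between the lines before *FLI1* is reduced. *ERBB2* and *IGF1R* were the receptors called, both higher in U251MG, which is 2 of 10 beside 15.1% of the 16391 genes tested (9.72% higher and 5.39% lower). *FGFR1* and *DDR2* lay lower in U251MG by less than 2-fold, and *EGFR* and *AXL* had intervals that held 0. The median log2 difference of the 10 receptors was 0.08, and that of all genes 0.11. Intervals lay above 0 for 5 receptors and below 0 for 3, beside 34.7% and 22.8% of all genes (57.5% in either direction). The width of an interval depends on the counts of a gene, and these shares were not matched for counts.

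**Figure D2:**
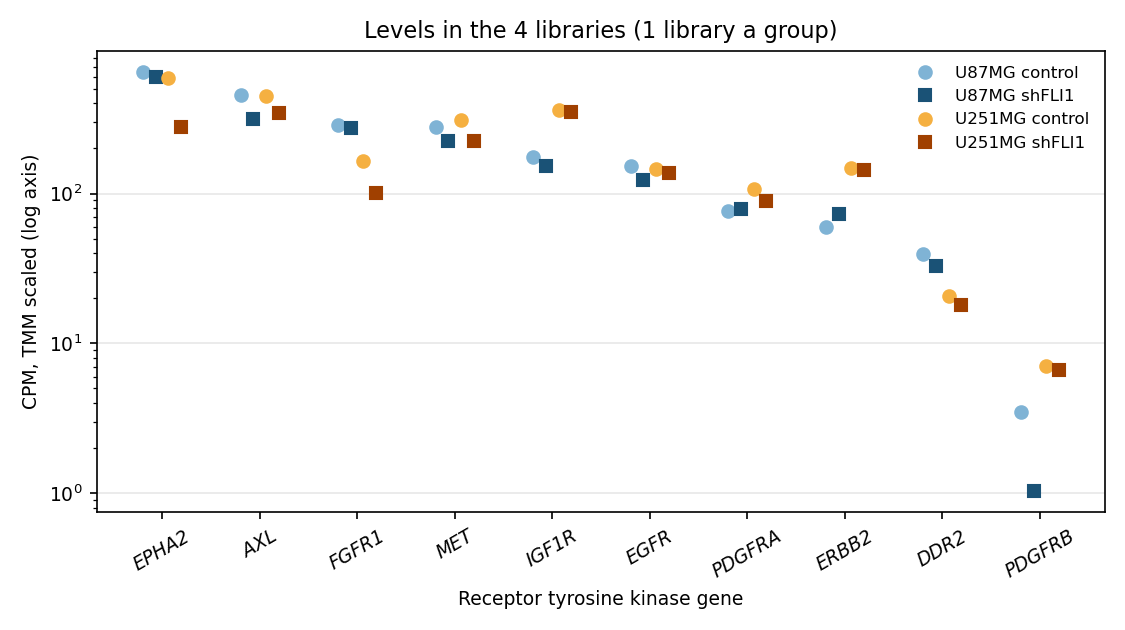
CPM (y axis, log scale) of each of the 10 receptors in the 4 libraries, with 1 library for each group and circles for control and squares for shFLI1 cells. *EPHA2* falls from 590 to 280 CPM in U251MG but runs from 650 to 597 CPM in U87MG, and *IGF1R* and *ERBB2* separate the lines more than the knockdown does.

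In the ErbB family, *ERBB2*, the partner receptor with no known ligand, stood at 60.3 CPM in U87MG control, 73.5 in U87MG shFLI1, 148 in U251MG control and 144 in U251MG shFLI1 cells. Both U251MG libraries thus lay above both U87MG libraries. The control difference was 1.30 on the log2 scale (1.18 to 1.42), or 2.46-fold. *EGFR* stood at 152, 124, 145 and 137 CPM in the same order, and its libraries of both lines overlapped, with a control difference of -0.06 (-0.15 to 0.02).

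*IGF1R* stood at 174 CPM in U87MG control, 152 in U87MG shFLI1, 361 in U251MG control and 349 in U251MG shFLI1 cells. As for *ERBB2*, the lines did not overlap. The control difference was 1.05 (0.98 to 1.13), or 2.07-fold. It fell short of the 2-fold line with DESeq2 size factors (0.99) and with the authors' FPKM plus 1 (0.87) or 0.1 (0.89). Of the receptors measured, *ERBB2* and *IGF1R* were each other's nearest in pattern, with a distance of 0.34 between their centred log2 CPM over the 4 libraries, among 33 candidates.

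The platelet-derived growth factor receptors both had higher values in U251MG. *PDGFRA* stood at 76.0, 78.8, 107 and 88.5 CPM in U87MG control, U87MG shFLI1, U251MG control and U251MG shFLI1 cells, a control difference of 0.49 (0.37 to 0.61). *PDGFRB* rested on few reads, with 40, 23, 125 and 198 counts, or 3.49, 1.03, 7.01 and 6.61 CPM. Its control difference of 0.99 (0.48 to 1.56) lay at the 2-fold line without passing it, and it passed with total counts (1.05), a prior count of 0.25 (1.00), FPKM plus 0.1 (1.43) and the most counted RNA alone (1.38).

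*FGFR1* and *DDR2* had the larger differences toward U87MG. *FGFR1* stood at 287 and 273 CPM in U87MG control and shFLI1 cells and at 164 and 101 CPM in U251MG, a control difference of -0.80 (-0.88 to -0.73). *DDR2* stood at 39.2 and 33.1 CPM in U87MG and at 20.7 and 18.0 CPM in U251MG, a control difference of -0.92 (-1.12 to -0.72). The 2 genes were each other's nearest in pattern, at a distance of 0.43.

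The remaining receptors lay within 0.17 on the log2 scale in the control libraries. *MET* stood at 277 CPM in U87MG and 311 in U251MG (log2 difference 0.17, interval 0.10 to 0.23) and *EPHA2* at 650 and 590 CPM (-0.14, -0.18 to -0.10). *AXL* stood at 451 and 446 CPM (-0.02, -0.07 to 0.03). For *AXL* and *EGFR* the sign of this small difference turned in some of the other scalings.

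When the line was tested over all 4 libraries, with knockdown as a block, edgeR's quasi-likelihood test called 5 of the 10 receptors, beside 18.6% of 16649 genes (10.4% higher and 8.25% lower). This fit rests on 1 residual degree of freedom and takes the control and shFLI1 library of a line as its replicates. *ERBB2* (log2 difference 1.06, adjusted p = 0.00191), *IGF1R* (1.06, adjusted p = 0.00249) and *PDGFRB* (1.73, adjusted p = 0.0207) were higher in U251MG. *FGFR1* (-1.19, adjusted p = 0.00308) and *DDR2* (-0.97, adjusted p = 0.00337) were lower. Each of the 5 lay on the same side in both U251MG libraries against both U87MG libraries. The fit takes in both conditions, and so any difference in knockdown change between the lines. In the control libraries alone the values were 1.30, 1.05 and 0.99 for *ERBB2*, *IGF1R* and *PDGFRB*, and -0.80 and -0.92 for *FGFR1* and *DDR2*.

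**Figure D3:**
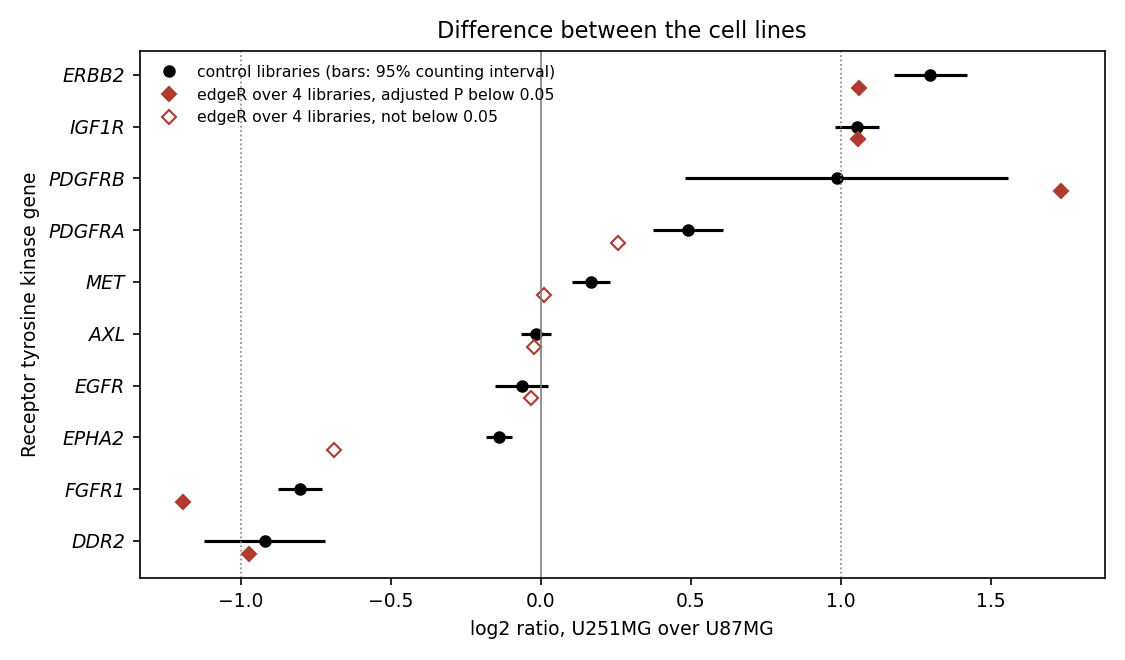
Log2 ratio of U251MG over U87MG (x axis) for each receptor, from the control libraries (black, with 95% counting intervals) and from edgeR over all 4 libraries (red diamonds, filled where the adjusted P was below 0.05). *ERBB2*, *IGF1R* and *PDGFRB* lie to the right and *FGFR1* and *DDR2* to the left, while *EPHA2* moves from -0.14 to -0.69 when the shFLI1 libraries are included.

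*EPHA2* did not pass in that fit (-0.69, adjusted p = 0.0760), although its shFLI1 library in U251MG, at 280 CPM, lay below its 3 other libraries. It passed with DESeq2 (adjusted p = 0.0218) and in edgeR with every gene of at least 1 count kept (adjusted p = 0.00312). *PDGFRA*, *MET*, *AXL* and *EGFR* had adjusted p-values from 0.262 to 0.975. Without the knockdown block 2 receptors passed, *ERBB2* and *IGF1R*.

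After knockdown of *FLI1* in U87MG, *PDGFRB* was the only receptor called, lower at 29.6% of control, which is 1 of 10 beside 11.4% of the 17355 genes tested (7.21% higher and 4.19% lower). *AXL*, *MET*, *EGFR*, *DDR2* and *IGF1R* stood between 70.2% and 87.2% of control, and *ERBB2* at 122%. The point values of 8 of 10 receptors were below 0, *EPHA2* and *FGFR1* turning above 0 with total counts, as were those of 44.4% of all genes. The median was -0.22 for the receptors and 0.06 for all genes tested.

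After knockdown in U251MG, *EPHA2* was the only receptor called, lower at 47.4% of control, which is 1 of 10 beside 8.17% of 18222 genes (4.17% higher and 4% lower). *FGFR1* stood at 61.4% of control, *MET* at 72.1% and *AXL* at 76.7%, none past 2-fold. All 10 point values were below 0, *ERBB2* and *IGF1R* turning above 0 with total counts, as were those of 45.6% of all genes. The medians were -0.24 for the receptors and 0.04 for all genes. Scaling by total counts raised the median of all genes in U87MG to 0.22 and that in U251MG to 0.11, and small changes near 0 are read against that shift.

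Whatever the size of the change, 8 of 10 receptors in each line had an interval wholly below 0, beside 23.3% of genes in U87MG and 23.1% in U251MG. *ERBB2* in U87MG was the only one with an interval above 0, beside 26.7% of genes there and 24.6% in U251MG. In either direction the intervals left out 0 for 50.1% of all genes in U87MG and 47.8% in U251MG. The width of an interval depends on the counts of a gene, so small changes leave out 0 more readily in well-counted genes. The shares of all genes were not matched to the receptors for counts. In both lines at once the interval lay wholly below 0 for 7 receptors, *EGFR*, *MET*, *AXL*, *FGFR1*, *IGF1R*, *EPHA2* and *DDR2*. The same held for 12.2% of the 16384 genes tested in both lines. With total counts, *EPHA2* and *FGFR1* in U87MG and *IGF1R* in U251MG turned above 0, as did *DDR2* in U251MG by the authors' FPKM over all RNAs (0.03 and 0.04 with 1 and 0.1 added).

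**Figure D4:**
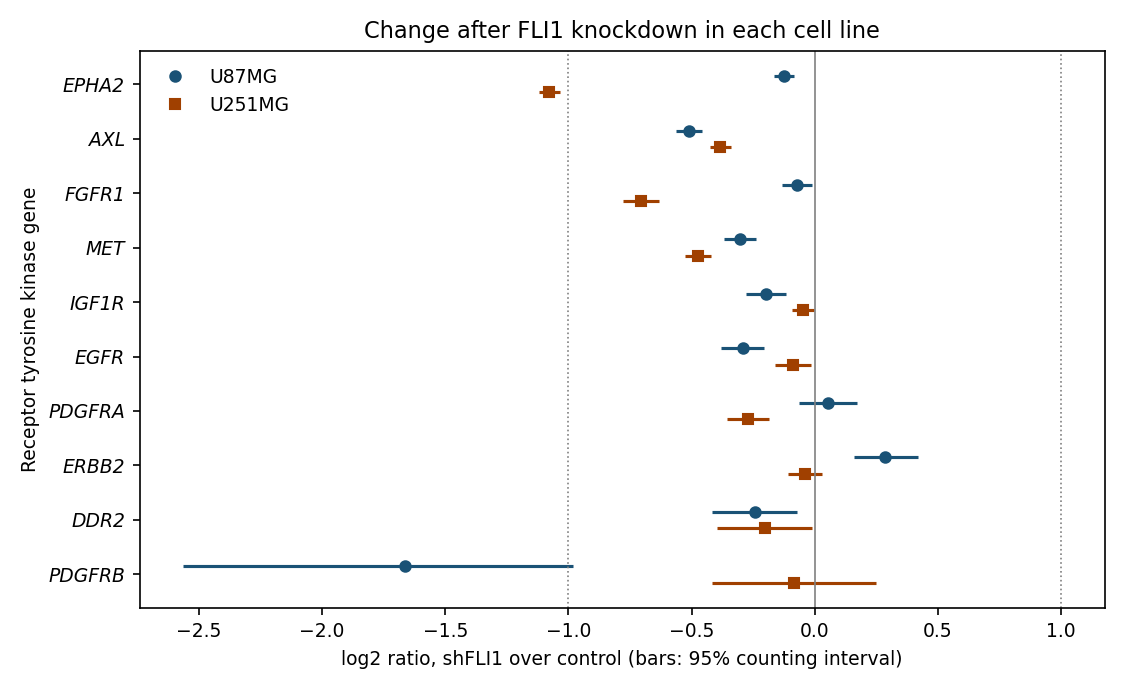
Log2 ratio of shFLI1 over control (x axis) for each receptor in U87MG (blue circles) and U251MG (brown squares), with bars for the 95% counting interval and dotted lines at 2-fold. *PDGFRB* passes the line in U87MG, *EPHA2* passes it in U251MG, and *AXL* and *MET* are among the receptors that lie to the left in both.

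*EPHA2* had 7448 counts in U87MG control, 13281 in U87MG shFLI1, 10525 in U251MG control and 8380 in U251MG shFLI1 cells. At 650, 597, 590 and 280 CPM, the U251MG shFLI1 library stood apart from the others. The change was -1.08 (-1.12 to -1.04) in U251MG and -0.12 (-0.16 to -0.08) in U87MG, and the U87MG value turned to 0.04 with total counts. The difference between these changes was -0.95 (-1.01 to -0.90) by counting error, and could not be tested with 1 library a group. In the authors' FPKM with 1 added the U251MG change was -0.996 and just missed the 2-fold line. The gene lies at chr1:16124337-16156069 on the minus strand of GRCh38, and 1 of its 4 RNA records held 95.3% of its counts.

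*PDGFRB*, at chr5:150113839-150155872 on the minus strand, went from 40 to 23 counts in U87MG, although the shFLI1 library was the deeper one. Its change was -1.67 (-2.56 to -0.98) in U87MG and -0.08 (-0.42 to 0.25) in U251MG, where it had 125 and 198 counts. By the authors' FPKM over all RNAs the U87MG change turned to 0.46, with 0.60 FPKM in control and 0.86 in shFLI1 cells, whereas over mRNA records alone it was -1.49, with 0.60 and 0.15 FPKM. With the most counted RNA alone it was -1.58, so the direction held in counts and in mRNA-record FPKM and reversed in FPKM over all RNAs. The 3 mural cell markers, whose cells express *PDGFRB*, summed to 28.3 and 15.1 CPM in U87MG control and shFLI1 cells and to 32.4 and 13.7 CPM in U251MG. Among them, the smooth muscle actin *ACTA2* was called lower in both lines, with changes of -1.08 and -2.15, *RGS5* was not called, and *DES* was at or near 0. Their part in the *PDGFRB* value was not tested.

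*AXL*, *MET* and *EGFR* were below control in both lines under every alternative run. *AXL*, at chr19:41219223-41261766 on the plus strand, went from 451 to 317 CPM in U87MG and from 446 to 342 CPM in U251MG. Both shFLI1 libraries lay below both controls. The changes were -0.51 (-0.56 to -0.46) and -0.38 (-0.42 to -0.34). The 2 main RNA records of *AXL* kept their shares of its counts, between 57.1% and 60.1% for the first and between 39.5% and 42.4% for the second in the 4 libraries.

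*MET*, at chr7:116672196-116798377 on the plus strand, went from 277 to 225 CPM in U87MG and from 311 to 224 CPM in U251MG. Here too both shFLI1 libraries lay below both controls. The changes were -0.30 (-0.37 to -0.24) and -0.47 (-0.52 to -0.42). *MET* and *AXL* were each other's nearest in pattern, at a distance of 0.16, against median distances of 1.00 and 0.98 to the 33 candidates.

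*FGFR1* went from 287 to 273 CPM in U87MG and from 164 to 101 CPM in U251MG. The changes were -0.07 (-0.13 to -0.01) and -0.70 (-0.78 to -0.63), and the difference between them was -0.63 (-0.73 to -0.54) by counting error. In U87MG the sign turned under 5 of 7 alternatives, with total counts among them, while in U251MG it held under all 7. Its counts were spread over 44 RNA records, of which the largest held 8.41%.

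*EGFR*, at chr7:55019017-55211628 on the plus strand, went from 152 to 124 CPM in U87MG and from 145 to 137 CPM in U251MG, changes of -0.29 (-0.38 to -0.20) and -0.09 (-0.16 to -0.02). As for *AXL* and *MET*, both shFLI1 libraries lay below both controls. *ERBB2*, at chr17:39687914-39730426 on the plus strand, had the only interval above 0. Its change was 0.29 (0.16 to 0.42) in U87MG and -0.04 (-0.11 to 0.03) in U251MG, where the sign turned under 5 of 7 alternatives. *PDGFRA*, at chr4:54229280-54298245 on the plus strand, had changes of 0.05 (-0.07 to 0.17) and -0.27 (-0.36 to -0.18).

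*IGF1R*, at chr15:98648539-98964530 on the plus strand, was at -0.20 (-0.28 to -0.12) in U87MG and -0.05 (-0.094 to -0.0039) in U251MG, the latter above 0 in the total count scaling. While the sum over the gene moved little, the estimated share of 1 of its 7 mRNA records was 6.80% in control and 19.4% in shFLI1 cells of U87MG, and 11.1% and 26.7% in U251MG. These shares are estimates split between overlapping RNAs and have no replicate error. *DDR2*, at chr1:162631373-162787405 on the plus strand, had changes of -0.24 (-0.42 to -0.07) and -0.20 (-0.40 to -0.01).

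To test the knockdown over both lines, edgeR was fitted with the line as a blocking term, so that the lines served as replicates. None of the 10 receptors passed at an adjusted p of 0.05, beside 3.06% of 16649 genes (0.919% higher and 2.14% lower), while *FLI1* did (log2 change -1.85, adjusted p = 0.00698). *AXL* (-0.46, adjusted p = 0.196), *MET* (-0.40, adjusted p = 0.229) and *EPHA2* (-0.62, adjusted p = 0.236) came nearest, and they were the 3 receptors with an unadjusted p under 0.05, beside 16.5% of all genes. DESeq2 called none of the 10 either. With every gene of at least 1 count kept, *EPHA2* passed (adjusted p = 0.0123). A p above the threshold in a fit with 1 residual degree of freedom does not show that the receptors kept their level.

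The wider pathway was read from lists of other receptors, ligands, adaptors and negative regulators, in the same comparisons, which share their control libraries with those above. Of the other 44 receptors in the table, 3 were called higher and 4 lower of 25 tested in U87MG, and 2 higher and 3 lower of 30 tested in U251MG. Of all genes tested, 7.21% were called higher and 4.19% lower in U87MG, and 4.17% higher and 4% lower in U251MG. *FGFR2*, a sister of *FGFR1*, went from 17 to 391 counts in U87MG (3.48) and from 159 to 255 in U251MG (-0.07). *EPHA7* went from 16 to 377 counts in U87MG (3.51) and had 0 counts in both U251MG libraries. *ROR2*, a WNT5A receptor, was at 179 and 110 counts in U251MG, a change of -1.43, with at most 3 counts in U87MG. The shared edgeR fit called *EPHA7* higher (adjusted p = 0.00876), on U87MG reads alone, and *EPHB2* lower (-0.86, adjusted p = 0.0308), the latter chosen for mention after its values were seen. They were the only calls among 28 other receptors tested in that fit, beside 3.06% of all genes.

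**Figure D5:**
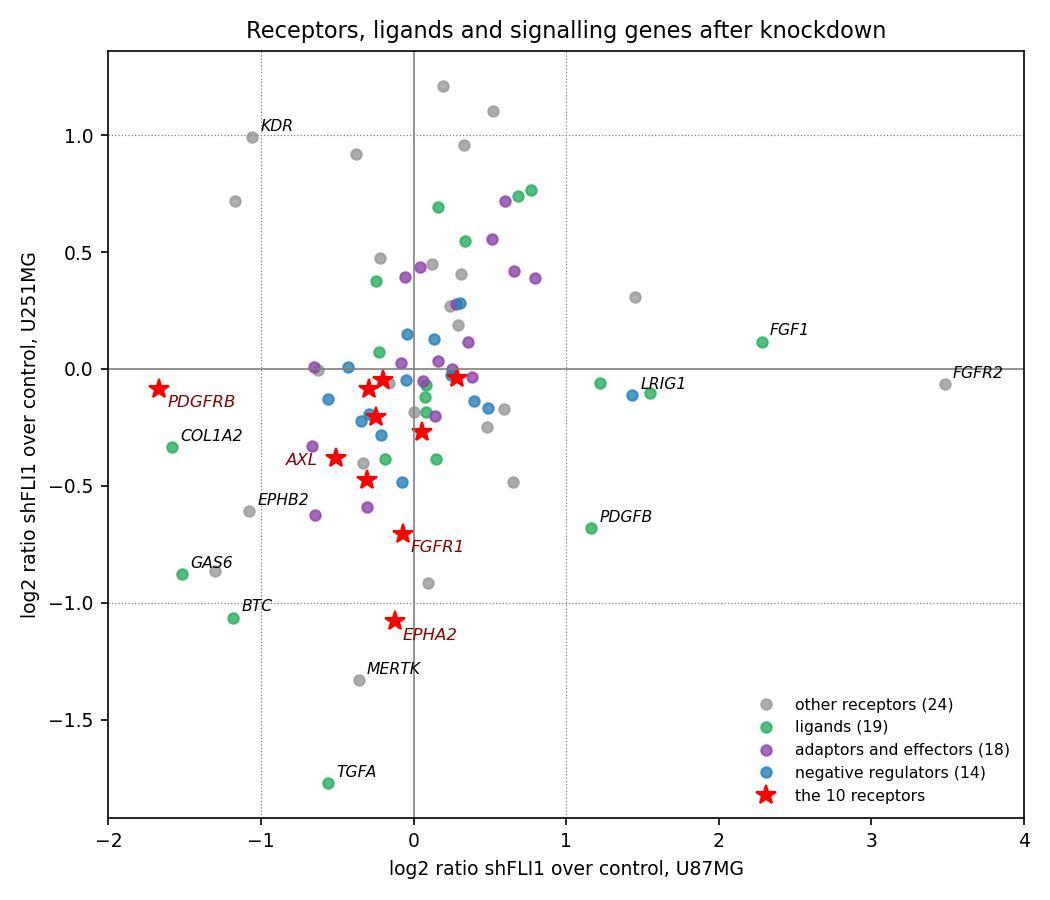
Log2 ratio of shFLI1 over control in U87MG (x axis) and U251MG (y axis) for the 10 receptors (red stars) and for listed genes tested in both lines, with dotted lines at 2-fold. *BTC* passes the line on the lower side in both, *TGFA* passes it in U251MG, and 8 of the 10 receptors lie in the lower left part of the plot, *EPHA2*, *FGFR1* and *IGF1R* near enough to an axis to cross it with total counts.

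Among ligands, 4 were called higher and 3 lower of 19 tested in U87MG, and 0 higher and 2 lower of 20 tested in U251MG. Of all genes tested, 11.4% were called in U87MG and 8.17% in U251MG, in either direction. *BTC*, betacellulin, an EGFR ligand, was called lower in both lines (-1.18 and -1.06), on 68 and 57 counts in U87MG and 125 and 99 in U251MG. *TGFA*, transforming growth factor alpha, also an EGFR ligand, went down by less than 2-fold in U87MG (-0.56), was called in U251MG (-1.77) and passed the shared edgeR fit (-1.18, adjusted p = 0.0419). The other ligand to pass was *GAS6*, which binds AXL, with changes of -1.51 and -0.88 (shared -1.21, adjusted p = 0.0127), named after its values were seen. The collagens that bind DDR2 went apart in U87MG, with *COL1A2* at -1.58 and *COL1A1* at 1.22, and had changes of -0.33 and -0.06 in U251MG. *COL3A1*, on 7 and 44 counts in U87MG, was called higher there (1.55) and was at -0.10 in U251MG, and it was added after its values were seen. *FGF2* (0.15 and -0.38) and *PDGFA* (0.08 and -0.12) were not called. *PDGFB* (1.16 in U87MG and -0.68 in U251MG) and *FGF1* (2.28 and 0.12) were called higher in U87MG alone. *FGF1* rested on 8 and 84 counts there, and both were named after their values were seen. *HGF* and *AREG* were not analysed here.

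None of the 18 adaptors and effectors was called in either line, nor in the shared fit. The shares called of all genes were 11.4% in U87MG, 8.17% in U251MG and 3.06% in the shared fit. The values of the adaptors and effectors ran from -0.67 to 0.80 in U87MG and from -0.62 to 0.72 in U251MG. The RAS exchange factor *SOS2* (-0.65 and -0.62) and the adaptor *SHC1* (-0.67 and -0.33) lay below control in both lines, and *STAT3* (0.36 and 0.11) above. The other listed RAS exchange factor, *SOS1*, went the other way from *SOS2* (0.51 and 0.56), and was named after its values were seen. Between the control lines, the kinase *SRC* (1.19) and the phospholipase *PLCG1* (1.05) were called higher in U251MG. Of 14 negative regulators, *LRIG1*, a transmembrane protein that promotes loss of ErbB receptors, was the only one called, in U87MG (1.43), and it was named after its values were seen. The EGFR inhibitor *ERRFI1* (-0.43 and 0.01), the ubiquitin ligase *CBL* (0.13 and 0.13) and the phosphatase *PTPRJ* (-0.35 and -0.22) were not called.

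Ligands and receptors also differed between the control lines. *COL1A1* (2.72), *PDGFA* (1.90) and *EFNA4* (1.69), an ephrin ligand of EPHA receptors, were called higher in U251MG among 4 ligands higher and 0 lower of 18 tested. Of the other receptors, 8 were called higher and 3 lower in U251MG of 28 tested. Of all genes tested between the control lines, 9.72% were called higher and 5.39% lower. *ROR2* went from 3 to 179 counts, *EPHA3* (2.21) and *FGFR2* (2.51) were higher, and *EPHA7*, *ROS1* (-3.05) and *EPHA5* (-1.46) were lower.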

How the data were processed

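RNA-seq was made from poly-A RNA of U87MG and U251MG cells, 1 control and 1 shFLI1 library each. The authors aligned reads to GRCh38 (p13 in the submitters' processing notes) with HISAT2 and deposited, per RNA, estimated counts that are not normalized, by a tool not given in the sources used here, and FPKM values from StringTie. The labels and the methods name different library kits. A further 10 value columns (TPM and means) were not used. Estimated counts of 185042 linear RNAs were summed over 46660 gene identifiers and rounded, which leaves splits between overlapping RNAs uncertain. Scaling was by TMM in edgeR 4.0.16 (R 4.3.3), with a prior count of 2 for log2 ratios. Within a line and between control lines, genes reaching 10 counts in either library were called past 2-fold where the 95% Clopper-Pearson interval left out 0. Over 4 libraries, edgeR's quasi-likelihood test used filterByExpr and Benjamini-Hochberg adjustment over all genes, with DESeq2 1.42.0 as an alternative. The steps were tested on simulated data, with knockdown changes larger than those of the 10 receptors, in well-counted genes and without line differences. Recovery of smaller changes, of changes in poorly counted genes and of line differences was not covered. Likeness was the Euclidean distance of centred log2 CPM. Totals of 12229780 to 28891055 counts limit precision mostly for PDGFRB. Alternatives covered scaling, prior count, count minimum, FPKM with 1 or 0.1 added, the most counted RNA alone, a 1.5-fold threshold and the blocks. Members and gene lists were chosen with earlier results of these data known. Beside FLI1 and the 10 receptors, genes named were, per list, those called alike in both lines, the 3 highest in each control library and the 3 called with the largest line differences in each direction. Coordinates are from GENCODE on GRCh38, and promoter sequences from RefSeq on GRCh38.p14.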

Additional observations from a re-analysis of the deposited data

Results flagged for a closer look

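No receptor of the 10 had counting intervals on opposite sides of 0 in the 2 lines, but 8 genes of the wider lists did. The values are the log2 knockdown change in U251MG minus that in U87MG, and the difference was not tested, since each group has 1 library. Among receptors these were *KDR* (2.05), *EPHA4* (1.29), *DDR1* (0.70) and *EPHA3* (-0.73). Among ligands they were *PDGFB* (-1.84) and *FGF2* (-0.53). The adaptor *GRB2* (-0.34) and the negative regulator *SPRY4* (-0.53) completed the set. The share of all genes with such opposite intervals was not counted, so the 10 receptors and the lists cannot be set against it. In either direction, intervals left out 0 for 50.1% of all genes in U87MG and 47.8% in U251MG.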

How the results depend on the processing

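Of the 10 receptors, the count called after knockdown in U87MG went from 1 to 0 with a minimum of 100 counts and with FPKM plus 1 or 0.1, where *PDGFRB* turned to 0.22 and 0.46. Over mRNA records alone, an alternative chosen after seeing the data, it was -1.49 and the count stayed at 1. In U251MG the count went from 1 to 0 (FPKM plus 1) and 2 (1.5-fold), and between control lines from 2 to 1 (DESeq2 size factors, FPKM plus 1), 3 (total counts, prior count 0.25), 4 (most counted RNA) and 5 (1.5-fold). In the shared fit it went from 0 to 1 with every gene of at least 1 count, and in the line fit from 5 to 2 without the knockdown block and to 6 with DESeq2 or every gene of at least 1 count. Calls over all genes, at a minimum of 100 counts, FPKM plus 1 and 1.5-fold, were 555, 831 and 3529 in U87MG (from 1979), 400, 538 and 2810 in U251MG (from 1488) and 1050, 1269 and 4545 between control lines (from 2476). With mRNA-record FPKM they were 930 in U87MG and 651 in U251MG, and with the most counted RNA 2242 in U251MG. The shared fit called 1303 genes (from 509) with every counted gene kept. Without the cell line block edgeR called 0, with 725 genes at an unadjusted p under 0.05. The line fit called 1813 (from 3100) with DESeq2 and 531 without the knockdown block. The cause of these changes was not tested. The share of calls that were higher, 63.3% in U87MG and 51.1% in U251MG, was 52.3% and 33.8% at a minimum of 100 counts, 75.0% with total counts in U87MG, 73.4% with FPKM plus 0.1 in U87MG, and 52.4% and 37.2% with mRNA-record FPKM. No library could be left out, since no residual degree of freedom remained. The labels give no replicate numbers, so the cell line was the only block that could pair a control with its shFLI1 library.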
